A study of Mus musculus with 12 samples.

Results

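Cdkn1a, Gadd45a, Sesn1 and Sesn2 are stress response genes that the transcription factor p53 can switch on, and they were found by symbol as 4 of the 770 genes in a table of mouse hippocampus. RNA was counted with the NanoString nCounter assay, in which a barcoded probe is counted for each captured molecule without amplification. The mice were labelled mtOgg1 or Control for genotype, were 13 months old and of the C57BL6/J background. They formed 4 groups of 3: mtOGG1 females, control females, mtOGG1 males and control males. The series title names expression of OGG1, the glycosylase that removes oxidised guanine from DNA, in mitochondria, and the promoter and cells that drive it are not given in the sources used here. Nothing in the labels says that mice of a group came from separate litters or cages, and no processing batch is given.

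p53 is a DNA-binding protein that rises when DNA is damaged or cells are stressed, and it can halt the cell cycle, start repair or trigger cell death through its target genes. Cdkn1a encodes p21, which blocks cyclin-dependent kinases, and Gadd45a encodes a small growth arrest protein that binds PCNA and stress kinases. Sesn1 and Sesn2 encode sestrins, which restrain growth signalling through mTORC1, and Sesn2 is also switched on by NRF2 and ATF4. In the brain p21 is best known for holding neural precursors out of the cycle and as a marker of senescent cells.

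Levels are given as the authors' normalized counts, whose low values had been raised to a floor of 20. All 4 genes stood above this floor in all 12 mice, between 40 counts (Sesn2) and 454 counts (Sesn1) before scaling. Summed over genes above the floor, each mouse had 281838 to 418467 counts. Differences were tested with limma on log2(value + 1) over 608 genes that exceeded the floor in at least 3 mice, and a gene was called at a Benjamini-Hochberg adjusted p under 0.05. This scale slightly understates the change of low genes such as Sesn2. Of 15 neuron markers listed, 8 were in the table, none of them at the floor throughout, and their summed level was 16656 to 22669 in mtOGG1 females, 17913 to 19826 in control females, 17705 to 23484 in mtOGG1 males and 18857 to 19639 in control males.

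Cdkn1a was lower in mtOGG1 mice and was the only member called, in the comparison over both sexes. It stood at 138, 118 and 73.5 normalized counts in mtOGG1 females, against 197, 140 and 181 in control females. It stood at 55.6, 101 and 85.0 in mtOGG1 males, against 141, 165 and 211 in control males. All 6 mtOGG1 mice lay below all 6 control mice, with a narrow gap in females between 138.08 in mtOGG1 female 1 and 139.78 in control female 2. The mean was 95.2 ± 30.1 in mtOGG1 mice and 172 ± 29.0 in control mice (SD, n = 6 each), a ratio of 0.552. The log2 fold change was -0.90 with a standard error of 0.18 and a 95% interval from -1.28 to -0.51 (limma, adjusted p = 0.0231). In this comparison 8 of 608 genes were called (1.32%), 1 higher (0.164%) and 7 lower (1.15%). Cdkn1a ranked 5 by p, and its groups were among the 5 of 608 genes (0.822%) in which every mtOGG1 mouse was below every control mouse. Asked within each sex, every mtOGG1 mouse was below every control mouse in 21 genes in females (3.45%) and in 73 in males (12%). In both sexes at once this held in 7 genes (1.15%), Cdkn1a among them. An exact permutation of genotype within each sex gave a two-sided p of 0.005, the smallest that its 400 assignments allow. This p is unadjusted, and the separation within both sexes fixes it at that value, so it is not a separate test.

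**Figure D1:**
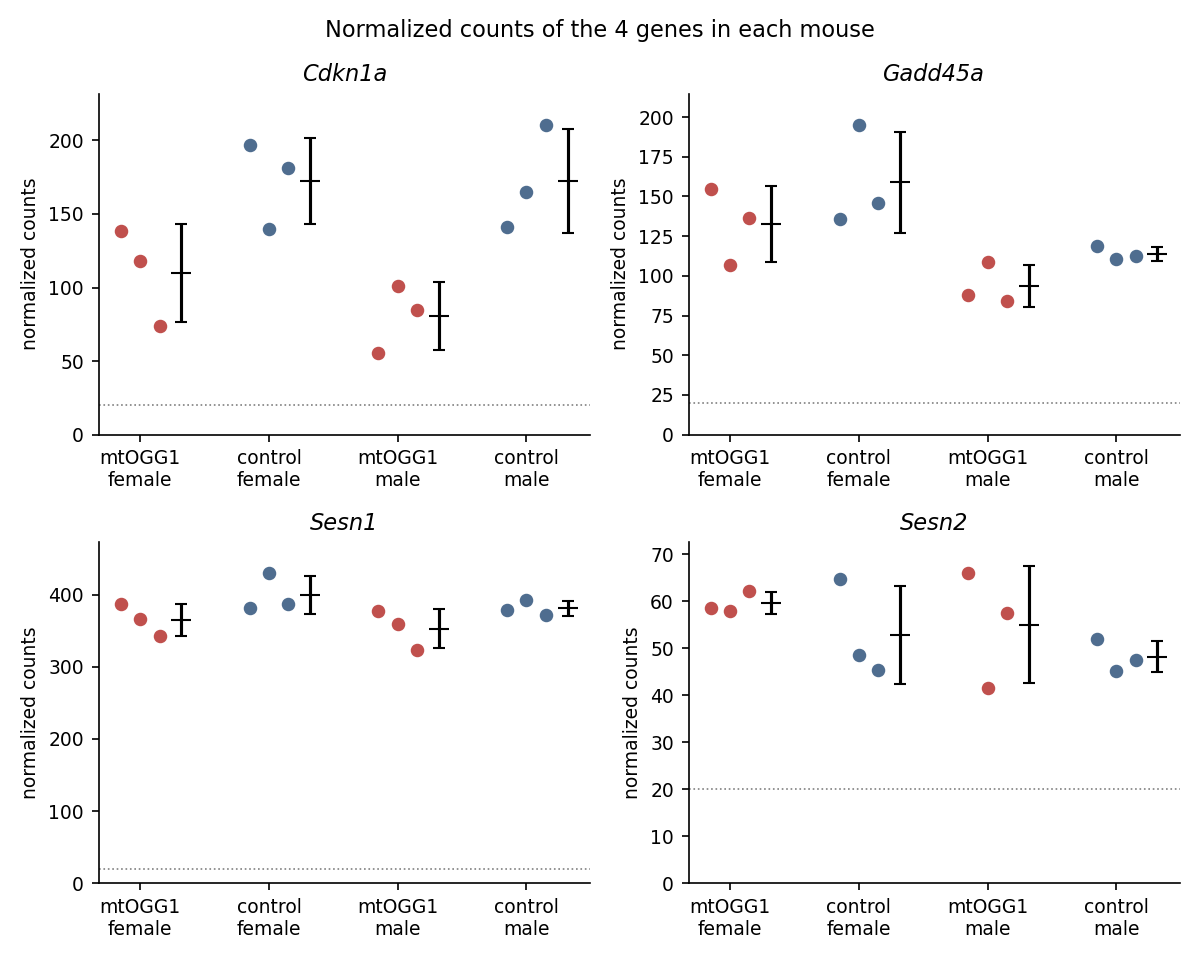
Normalized counts (vertical axes, from 0) of Cdkn1a, Gadd45a, Sesn1 and Sesn2 in each of the 12 mice, by genotype and sex; points are mice, bars beside them the mean and SD of 3 mice, and the dotted line the floor of 20. In Cdkn1a the mtOGG1 mice (55.6 to 138) lie below the control mice (140 to 211), whereas in the other 3 genes the 6 mtOGG1 and the 6 control mice overlap.

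The call rested on a gene near the threshold. With 1 mouse left out the log2 fold change lay between -0.99 and -0.76, and Cdkn1a passed in 8 of 12 fits. It missed the threshold without control female 1 (-0.84, adjusted p = 0.0794), mtOGG1 female 3 (-0.76, adjusted p = 0.0535), control male 2 (-0.91, adjusted p = 0.0669) and control male 3 (-0.82, adjusted p = 0.0981) in limma. The exact permutation p stayed between 0.005 and 0.01 in the 12 subsets. It could hardly rise, since leaving out a mouse cannot undo the separation of mtOGG1 from control mice, so it does not measure stability.

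**Figure D2:**
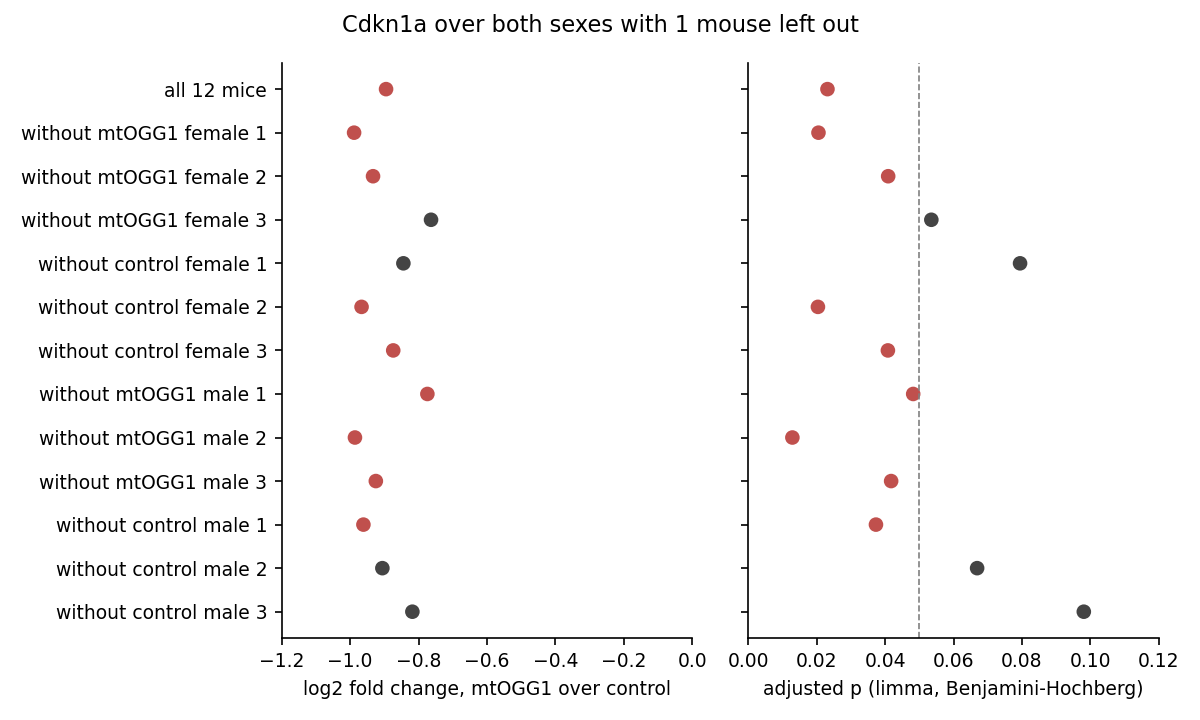
Cdkn1a over both sexes with all mice (top) and with each mouse left out in turn, as the log2 fold change of mtOGG1 over control (left) and the limma adjusted p (right, dashed line at 0.05); red marks fits under 0.05. The fold change stays between -0.99 and -0.76 while the adjusted p crosses the threshold in 4 of the 12 fits.

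Within females the log2 fold change of Cdkn1a was -0.68 (95% interval -1.22 to -0.13), and within males it was -1.11 (95% interval -1.66 to -0.57). The female value was -0.415 without mtOGG1 female 3 and -0.865 without mtOGG1 female 1. Neither passed in limma, with an adjusted p of 1 in females and 0.0524 in males, where 0 and 6 of 608 genes were called (0% and 0.987%). In females 18 genes (2.96%) had an unadjusted p under 0.05, Cdkn1a among them (limma, unadjusted p = 0.0180), and without moderation of the variances the count of calls was also 0. In males its mean was 80.5 ± 22.9 in mtOGG1 mice and 172 ± 35.3 in control mice (SD, n = 3 each). In females the mean was 110 ± 33.1 in mtOGG1 mice and 172 ± 29.4 in control mice (SD, n = 3 each). The male value passed with a pseudocount of 20, median centring, robust variances or a test of fewer genes, those above the floor in each mouse (adjusted p between 0.0309 and 0.0494, limma). It did not pass without a filter (adjusted p = 0.213), without moderation (adjusted p = 0.236) or with Slc17a6 as a covariate (-0.87, adjusted p = 0.104), and its adjusted p ran from 0.0138 without mtOGG1 female 3 to 0.204 without mtOGG1 male 1 (limma). The drop was smaller in females, with a female minus male difference of 0.43 on the log2 scale (limma, 95% interval -0.33 to 1.2, adjusted p = 0.988), so the sexes were not shown to differ. This difference was 0.193 without mtOGG1 male 1 and 0.697 without mtOGG1 female 3. For this difference 0 of 608 genes were called and 29 (4.77%) had an unadjusted p under 0.05. The control groups differed by 0.0667 in mean normalized count, and the mtOGG1 groups differed by 29.5, less than the larger SD of 33.1.

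**Figure D3:**
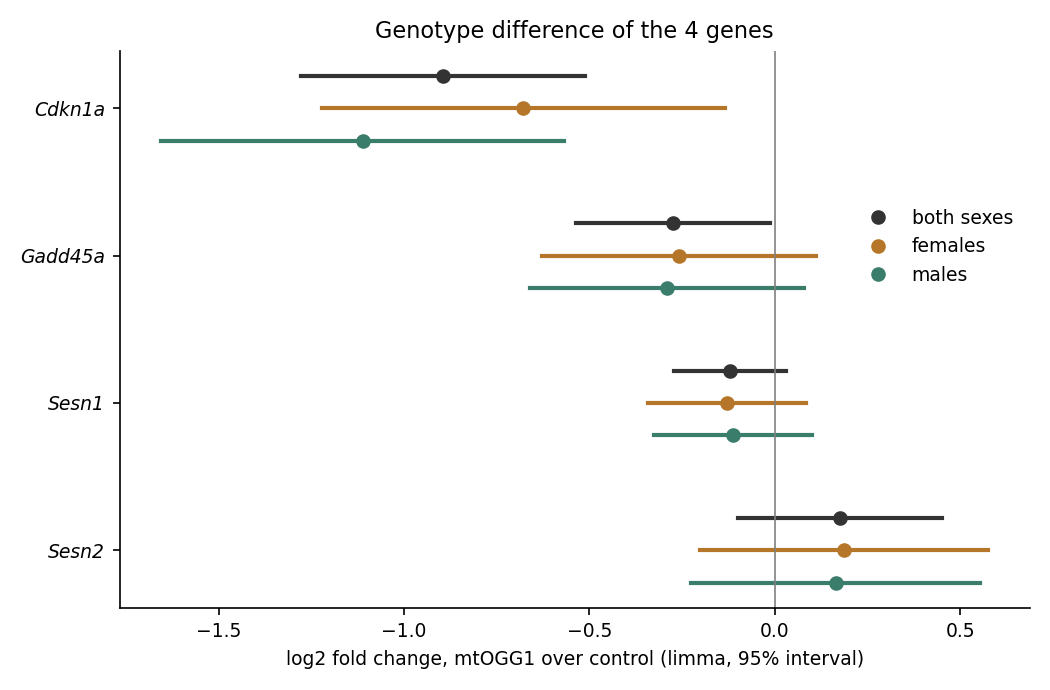
Log2 fold change of mtOGG1 over control (horizontal axis) for each gene in the sexes together, in females and in males; lines are 95% intervals from limma. The 3 Cdkn1a intervals lie below 0, the Gadd45a interval does so over both sexes alone, and every Sesn1 and Sesn2 interval includes 0.

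Markers of neighbouring tissue differed between the mice beside this result. Slc17a6, a vesicular glutamate transporter of neurons below the cortex, stood at 515, 618 and 1374 in mtOGG1 females, against 195, 392 and 1208 in control females. It stood at 1597, 403 and 1230 in mtOGG1 males, against 222, 726 and 286 in control males. The lowest Cdkn1a of each mtOGG1 group was in the mouse with its highest Slc17a6, mtOGG1 female 3 and mtOGG1 male 1. Control female 3, with Slc17a6 at 1208, had 181 normalized counts of Cdkn1a, and mtOGG1 male 2, with Slc17a6 at 403, had 101. Among mice of a group the 2 genes gave r = -0.49 (exact permutation p = 0.144) and rho = -0.60 (exact permutation p = 0.0640) over 12 mice, with r = -0.29 without control female 1 and mtOGG1 male 1. With Slc17a6 as a covariate the Cdkn1a value was -0.71 and no longer passed (limma, adjusted p = 0.0549). With Ttr, the marker of choroid plexus, as a covariate added after the data were seen, it was -0.86 (limma, adjusted p = 0.0170). Ttr stood at 46.8, 54.6 and 826 in mtOGG1 females, against 20, 66.4 and 1187 in control females. It stood at 1173, 1361 and 1525 in mtOGG1 males, against 35.6, 1510 and 336 in control males. Its log2 fold change was the highest of all 608 genes over both sexes, at 1.24, and in males, at 2.34, and neither passed (limma, adjusted p = 0.674 and 0.515).

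**Figure D4:**
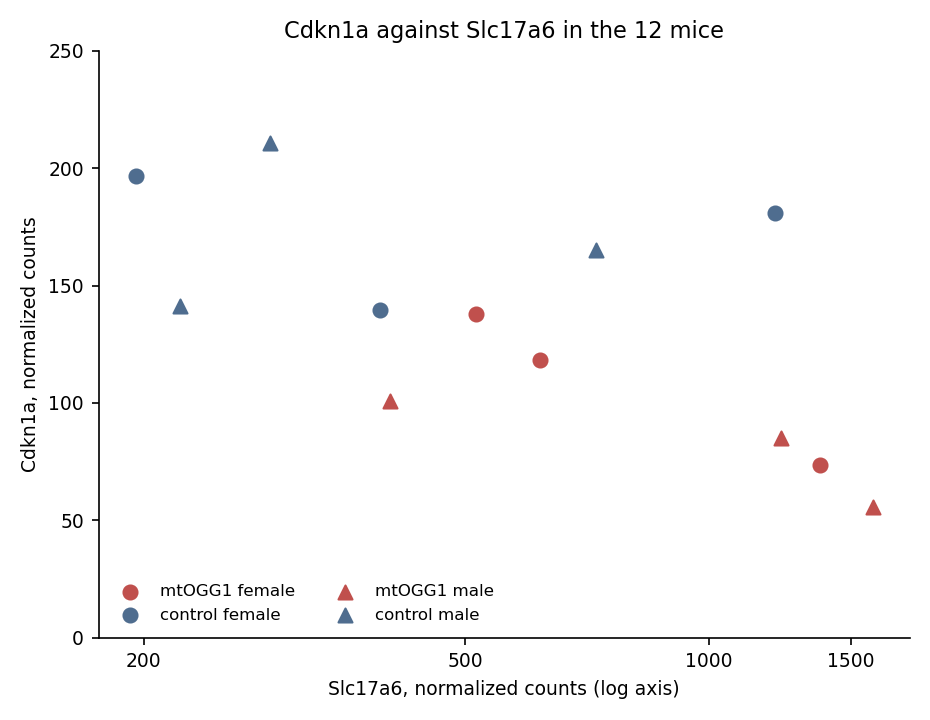
Cdkn1a (vertical axis, normalized counts) against Slc17a6 (horizontal log axis, normalized counts) in the 12 mice; colour gives genotype and shape sex. The 4 lowest Slc17a6 values (195 to 392) are all of control mice and the highest of a control mouse is 1208, and Cdkn1a is lowest, at 55.6, in the mouse with the most Slc17a6.

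Marker sums of other cell types also differed between some groups. The summed level of 7 endothelial and pericyte genes was 662 to 758 in mtOGG1 males and 873 to 986 in control males, without overlap. Among single genes, 73 of 608 (12%) had every mtOGG1 male below every control male. That of 11 oligodendrocyte genes was 16282 to 22912 in mtOGG1 males and 12038 to 16401 in control males, which overlapped narrowly. In males 1 of the 7 endothelial and pericyte genes was called, Ly6a, lower at -0.67, and 1 of the 11 oligodendrocyte genes, Opalin, named after its values were seen, higher at 0.70 (limma, adjusted p = 0.0253 and 0.0155). Over both sexes Ly6a was also called, at -0.43 (limma, adjusted p = 0.0486; under 0.05 in 3 of 12 fits with 1 mouse left out), and for the difference between the sexes 0 genes of either list were. In females both sums overlapped, at 704 to 866 in mtOGG1 and 712 to 918 in control mice for the endothelial genes, and at 16721 to 22150 in mtOGG1 and 16489 to 22073 in control mice for the oligodendrocyte genes. The microglia sum of 9 genes was 3686 to 4471 in mtOGG1 females against 3574 to 4678 in control females, and 3719 to 3757 in mtOGG1 males against 3263 to 3911 in control males. The astrocyte sum of 7 genes was 6945 to 7724 in mtOGG1 females against 6605 to 7269 in control females, and 7386 to 7583 in mtOGG1 males against 6338 to 7727 in control males. None of these marker genes was at the floor in all mice. Their part in the Cdkn1a difference was not tested, and fewer cells of a type and less RNA per cell cannot be told apart in tissue RNA.

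The Cdkn1a promoter is shown because p21 is the textbook p53 target and the member that changed. RefSeq gives 2 start sites, and the window of the upstream one (GRCm38.p6, chr17:29090729-29091028, plus strand, 250 bases before to 50 after the start) holds the pair of adjacent p53 half-sites printed in capitals.
Cdkn1a, upstream start site: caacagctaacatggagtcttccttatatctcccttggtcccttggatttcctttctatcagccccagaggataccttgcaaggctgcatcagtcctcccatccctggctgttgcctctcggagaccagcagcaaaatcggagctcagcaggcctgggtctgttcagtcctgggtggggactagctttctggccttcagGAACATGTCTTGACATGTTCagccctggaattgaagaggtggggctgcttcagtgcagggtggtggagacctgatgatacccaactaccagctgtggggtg
The pair lies 51 to 32 bases before that start and differs from the half-site consensus at 1 of 20 letters. The consensus reads the same on both strands. Of 32851 RefSeq windows of the same length, 18 (0.0548%) held such an adjacent pair with at most 1 mismatch. The central letters of each half-site (C, A or T, A or T, G) had to match, so pairs with a mismatch there were not counted. Single half-sites without a mismatch were found in 3 of the 6 windows of the 4 genes, against 8.36% of all windows. The 4 genes were chosen as p53 targets, so this is a description and not a test. The upstream Cdkn1a window also holds a separate half-site, GGACTAGCTT, 73 to 64 bases before the start, left in small letters above. The half-sites of Gadd45a and Sesn1 are printed in capitals with 15 bases on each side, for comparison with the Cdkn1a pair.
Gadd45a, chr6:67037423-67037462, minus strand: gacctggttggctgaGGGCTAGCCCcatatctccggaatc
Sesn1, second start site, chr10:41887251-41887290, plus strand: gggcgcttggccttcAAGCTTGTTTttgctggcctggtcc
The Sesn2 window (chr4:132510407-132510706, minus strand) held no match to these letters, as did the downstream window of Cdkn1a and the first of Sesn1. A match describes the letters alone, and binding was not measured here.

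Gadd45a had lower values in mtOGG1 mice that did not pass the test, and it was the member with the largest difference between the sexes. It stood at 154, 107 and 137 normalized counts in mtOGG1 females, against 136, 195 and 146 in control females. It stood at 87.7, 109 and 84.1 in mtOGG1 males, against 119, 111 and 112 in control males. The groups overlapped in females and did not in males, where 73 of 608 genes (12%) had every mtOGG1 mouse below every control mouse. Over both sexes the mean was 113 ± 27.6 in mtOGG1 mice and 136 ± 32 in control mice (SD, n = 6 each). The log2 fold change was -0.27 (limma, 95% interval -0.54 to -0.01, adjusted p = 0.401), with an exact permutation p of 0.06 that fell under 0.05 in 3 of 12 subsets with 1 mouse left out. It was -0.26 in females and -0.29 in males (limma, adjusted p = 1 and 0.485), the female value being -0.101 without control female 2, and the difference between these was 0.03 with an interval from -0.49 to 0.56.

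Between the sexes, Gadd45a averaged 146 ± 29.1 in females and 104 ± 14.3 in males (SD, n = 6 each), a log2 difference of 0.48 with an interval from 0.21 to 0.74. It ranked 8 of 608 by p and did not pass (limma, adjusted p = 0.118), where 4 genes (0.658%) were called, 2 higher in females (0.329%) and 2 lower (0.329%), and 39 (6.41%) had an unadjusted p under 0.05. The 6 females lay between 107 and 195 and the 6 males between 84.1 and 119, so that mtOGG1 female 2 alone fell within the male range. Trp53, which encodes p53, had a difference of the same sign between the sexes, at 0.34 (limma, adjusted p = 0.622). The sex differences were 0.22 for Cdkn1a, 0.06 for Sesn1 and 0.13 for Sesn2, each with an interval that includes 0. With 1 mouse left out they ranged from 0.102 (without mtOGG1 male 1) to 0.354 (without mtOGG1 female 3) for Cdkn1a, from 0.0272 (without mtOGG1 male 3) to 0.0823 (without mtOGG1 male 1) for Sesn1 and from 0.0331 (without mtOGG1 male 2) to 0.197 (without mtOGG1 male 1) for Sesn2. In the order of group means, control females (159) stood above mtOGG1 females (133), control males (114) and mtOGG1 males (93.5). Of these neighbours only the male groups, mtOGG1 and control, differed by more than the larger SD.

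Sesn1, the sestrin gene long known as a p53 target, varied least of the 4 genes. It stood at 387, 366 and 342 normalized counts in mtOGG1 females, against 382, 430 and 387 in control females. It stood at 377, 359 and 323 in mtOGG1 males, against 378, 393 and 372 in control males. The groups overlapped in both sexes, with 4 of the 6 mtOGG1 mice below every control mouse. The mean was 359 ± 23.3 in mtOGG1 mice and 390 ± 20.7 in control mice (SD, n = 6 each), a ratio of 0.920. The log2 fold change was -0.12 (limma, 95% interval -0.27 to 0.03, adjusted p = 0.527). The exact permutation p was 0.035, unadjusted, and it was 0.285 after median centring and 0.11 after scaling on 12 panel reference genes, with values of -0.07 and -0.08. It also missed 0.05 in 6 of 12 subsets (p up to 0.085), those without control female 2, mtOGG1 female 2 or 3, control male 1 or 2, or mtOGG1 male 3. No pair of neighbours in the order of its 4 group means differed by more than the larger SD.

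Sesn2, the sestrin that senses leucine and responds to several stresses, had slightly higher values in mtOGG1 mice that did not pass. It stood at 58.5, 58.0 and 62.2 normalized counts in mtOGG1 females, against 64.7, 48.6 and 45.2 in control females. It stood at 66.0, 41.5 and 57.6 in mtOGG1 males, against 51.9, 45.2 and 47.6 in control males. Groups overlapped in both sexes. The mean was 57.3 ± 8.37 in mtOGG1 mice and 50.5 ± 7.37 in control mice (SD, n = 6 each). The log2 fold change was 0.18 (limma, 95% interval -0.10 to 0.45, adjusted p = 0.625), with an exact permutation p of 0.18. It was 0.19 in females and 0.16 in males, and no neighbouring group means differed by more than the larger SD. The female value ranged from 0.0854 (without control female 3) to 0.338 (without control female 1) with 1 mouse left out. The male value ranged from 0.0224 (without mtOGG1 male 1) to 0.350 (without mtOGG1 male 2).

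Counting error set a different share of the spread in each gene. For Sesn1 the coefficient of variation expected from counting alone was 5.19%, beside 6.12% between mice of a group, and for Sesn2 the values were 13.7% and 15.5%. For Gadd45a they were 9.03% and 15.4%, and for Cdkn1a 8.70% and 24.6%, so that mice of a group varied in Cdkn1a well beyond counting error. The 95% Poisson interval of the lowest Cdkn1a value, 55.6 in mtOGG1 male 1, ran from 42.3 to 71.7 and covers counting error only. That of mtOGG1 female 1 ran from 114 to 165 and that of control female 2 from 118 to 165, so the order of these 2 mice was not resolved by the counts.

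The ratio of Cdkn1a to each other member within a mouse, taken after the single genes had been seen, hardly depends on the scaling of the mouse. Cdkn1a over Sesn2 was 1.71 ± 0.640 in mtOGG1 mice and 3.41 ± 0.665 in control mice (SD, n = 6 each), from 0.845 to 2.40 in mtOGG1 mice and from 2.69 to 4.36 in control mice, without overlap. Its log2 difference was -1.07 (exact permutation p = 0.005). Cdkn1a over Sesn1 was 0.266 ± 0.0750 in mtOGG1 mice and 0.446 ± 0.0895 in control mice (SD, n = 6 each), a log2 difference of -0.77 (exact permutation p = 0.01). Here the genotypes overlapped, from 0.150 to 0.358 in mtOGG1 mice and from 0.326 to 0.567 in control mice. Cdkn1a over Gadd45a was 0.853 ± 0.219 in mtOGG1 mice and 1.32 ± 0.383 in control mice (SD, n = 6 each), a log2 difference of -0.62 (exact permutation p = 0.04). Here too they overlapped, from 0.541 to 1.11 in mtOGG1 mice and from 0.717 to 1.87 in control mice. Ratios to genes other than the members were not taken. The 3 p-values are two-sided and unadjusted, and the last was 0.05 or more in 8 of 12 subsets with 1 mouse left out (up to 0.1), those without control female 1 or 3, mtOGG1 female 1 or 3, control male 2 or 3, or mtOGG1 male 1 or 2. Cdkn1a alone already separated the genotypes (exact permutation p = 0.005), so the ratios are not a separate test of its difference. These ratios compare changes of the genes and not their levels, since probes differ in efficiency.

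Members did not vary together between mice of a group in any pair that passed. Among 6 pairs of members and 4 pairs with Slc17a6 the adjusted exact permutation p of r was 0.826 or higher, over 12 mice with group means removed. The largest r between members was 0.51 for Gadd45a with Sesn1 (rho = 0.51, exact permutation p = 0.199 and 0.194). It was 0.02 without control female 2 and mtOGG1 male 3, the 2 mice with Gadd45a farthest from its median. With 1 mouse left out it ranged from 0.272 (without control female 2) to 0.680 (without mtOGG1 male 1). Cdkn1a gave r = -0.07 with Gadd45a, -0.11 with Sesn1 and -0.40 with Sesn2 (rho = -0.03, -0.04 and -0.22, exact permutation p = 0.869, 0.806 and 0.330 for r).

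The genes whose deviations from group means were most like each member over the 12 mice were picked from 607 others by the highest r, which is a description. For Cdkn1a they were Irf8, a microglial transcription factor (r = 0.86), Mapk14, which encodes the stress kinase p38 alpha (r = 0.83), and Fscn1, which encodes the actin bundling protein fascin (r = 0.83), where the median over all genes was 0.25. Their genotype values were 0.02 for Irf8, -0.12 for Mapk14 and -0.21 for Fscn1, none of which passed (limma, adjusted p = 0.966, 0.674 and 0.503). For Gadd45a they were Casp1, the inflammasome caspase gene (r = 0.90), Fgf13 (r = 0.84) and Casp9 (r = 0.84), for Sesn1 Bag4 (r = 0.90), Lmna (r = 0.86) and Setd2 (r = 0.85). For Sesn2 they were Nfe2l2, which encodes NRF2 (r = 0.67), Plcg2 (r = 0.64) and Ly6a (r = 0.64), the weakest likeness of the 4 members.

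Other genes of the pathway were read from lists chosen with earlier results of these data known, and over both sexes 0 of their 40 tested genes were called (limma), with 5 at an unadjusted p under 0.05, beside 71 of all 608 genes (11.7%). Among 16 genes that control p53, 11 were in the table and 8 were tested, with a median log2 fold change of 0.04 beside -0.01 for all 608 genes. Trp53 itself stood at 89.0 ± 18.5 in mtOGG1 mice and 86.2 ± 18.9 in control mice (SD, n = 6 each), a log2 fold change of 0.05 with an interval from -0.25 to 0.35 (limma, adjusted p = 0.904). The DNA damage kinase genes Atm and Atr had values of 0.08 and 0.06, and those of the chromatin modifiers Crebbp and Hdac1 were -0.10 and 0.11. Chek1, Chek2 and Trp73 exceeded the floor in fewer than 3 mice and were not tested.

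Of 33 other targets and partners of p53, 14 were in the table and 11 were tested, 6 above and 5 below 0 with a median of 0.05. Ccng2, which encodes an unconventional cyclin, had the smallest p at -0.29, followed by Casp6, an executioner caspase gene, at -0.27 (each limma adjusted p = 0.401). Pcna, the replication clamp that p21 binds, had a value of -0.14, and Trp53bp2, which encodes the p53 partner ASPP2, one of 0.21. Fas and Tnfrsf10b, which encode death receptors, were among those too close to the floor to be tested.

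Of 30 cell cycle genes around p21, 10 were in the table and tested, 6 above and 4 below 0 with a median of 0.09. Gadd45g, of the same family as Gadd45a, had a value of -0.28 (limma, adjusted p = 0.401), and the replicative helicase genes Mcm5 and Mcm6 had values of -0.22 and 0.19. E2f1, a transcription factor of S phase entry, had -0.16. The sestrin partners were thinly covered, with 3 of 27 in the table: Nfe2l2 had -0.06, Sqstm1 0.02 and Ulk1 -0.02, the last turning to 0.03 under median centring or panel reference scaling.

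Of 23 other stress genes, 9 were in the table and 8 were tested, 4 on each side of 0 with a median of -0.03. Hspb1, which encodes a small heat shock protein, stood at 61.6 in mtOGG1 mice and 105 in control mice on average, and its log2 fold change of -0.71 missed the threshold (limma, adjusted p = 0.0722). Vegfa had -0.26, Hif1a 0.10 and Mapk14 -0.12. In females 1 gene of the 5 lists had an unadjusted p under 0.05 and in males 7, beside 18 (2.96%) and 81 (13.3%) of all genes, and 0 were called (limma).

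**Figure D5:**
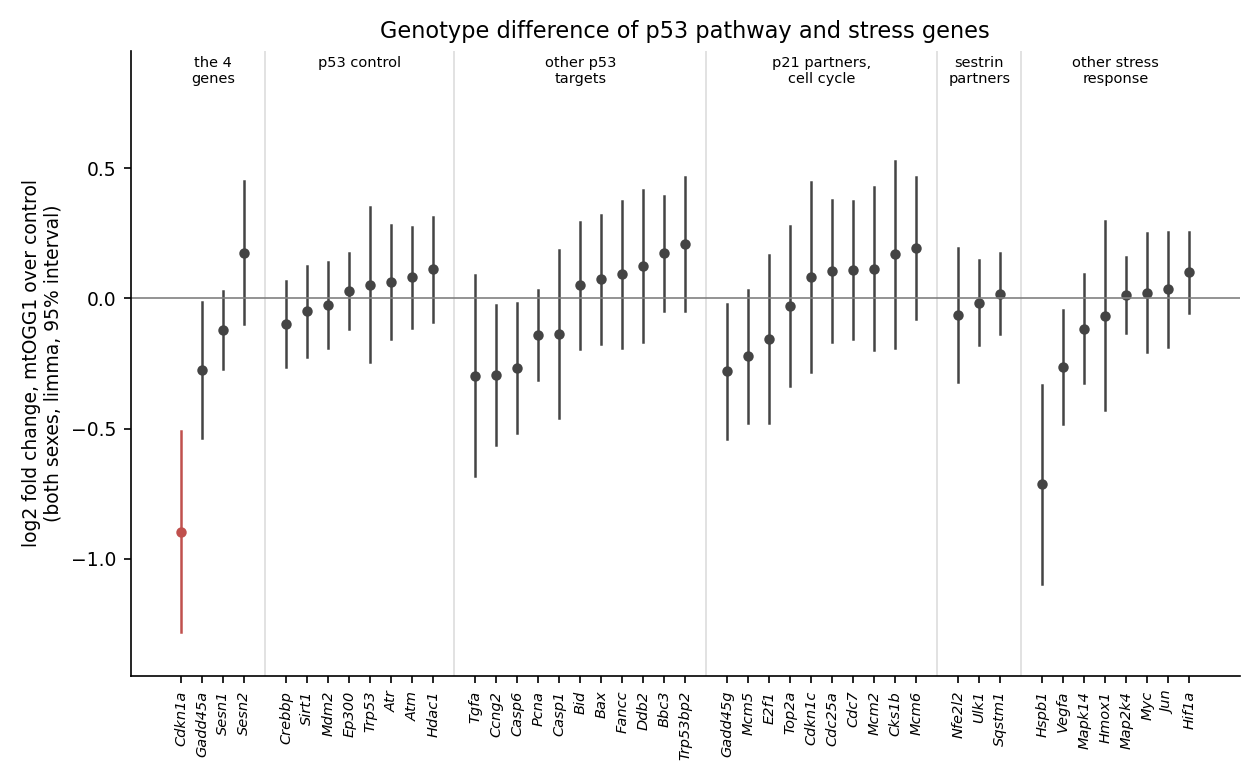
Log2 fold change of mtOGG1 over control over both sexes (vertical axis, with 95% intervals from limma) for the 4 genes and for the tested genes of 5 lists, sorted within each; red marks an adjusted p under 0.05. Cdkn1a, at -0.90, is the only red point, and Hspb1, at -0.71, is the next lowest.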

How the data were processed

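RNA from the hippocampus of each of 12 mice was counted on an nCounter panel. The labels' protocol points to the maker's metabolic pathways panel, while many genes of the table are inflammation genes, so the panel is unsettled, and the 12 reference genes of one alternative scaling come from a list chosen here. The deposited table holds normalized signal values, for which the authors used the maker's Advanced Analysis suite, per the labels. Dividing by a factor specific to the mouse (0.820 to 1.27) turns 100% of gene values above 20 into whole counts, within 0.01. Lower values were set to 20, and control rows carry no factor. The sources used here do not say how factors were derived. Because of the floor no count model was used.

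Values were fitted as log2(value + 1) with limma 3.58.1 in R 4.3.3, with 4 group means, variances moderated along an intensity trend, and Benjamini-Hochberg adjustment over 608 genes in each of 5 contrasts. Exact permutations are two-sided and ran in Python 3.11.15. On simulated counts for the comparison over both sexes (608 genes, 200 changed), the fit recovered 93% of 1.5-fold and 97% of 2-fold changes. Far more genes were changed there than the 8 of 608 (1.32%) called in the data, which eases the adjusted threshold. These rates therefore do not tell what share of true changes would be called in the data. Replicate pairs differed by at least 2.46 in chi-square per degree of freedom. Same-numbered mice correlated between -0.34 and 0.56, so numbers were not taken as pairs. The members and gene lists were chosen with earlier results of these data known. Besides the members, the genes named are the called genes of each list filled to 4 by p, the 3 genes most like each member, Slc17a6, Ttr and Trp53. Promoter sequences are from RefSeq (GRCm38.p6), and all 4 symbols matched it.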

Additional observations from a re-analysis of the deposited data

Results flagged for a closer look

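Among 14 sets of 6 mice of a genotype, 3 held a mouse far from the rest, where chance gives about 1 in 20. Sesn2 in mtOGG1 mice had its lowest value, 41.5, in mtOGG1 male 2, while the other 5 lay between 57.6 and 66.0. Without that mouse the Sesn2 log2 fold change was 0.27 (exact permutation p = 0.035, limma adjusted p = 0.322). The mouse was picked from these same values, so that permutation p is not a fair test. Its 42 counts gave a 95% Poisson interval from 29.9 to 56.1. Sesn2 in control mice had its highest value, 64.7, in control female 1, above 45.2 to 51.9 in the other 5. Sesn1 in control mice had its highest value, 430.25, in control female 2, the mouse that also held the highest Gadd45a, 195.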

How the results depend on the processing

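Over both sexes the count of called genes, 8 (1 higher, 7 lower), was 5 at pseudocounts of 5 and 20 and with genes above the floor in all mice, 0 without a filter, 0 without moderation, and 7 (2 higher, 5 lower) after median centring. With 1 mouse left out it lay between 3 (without mtOGG1 female 3 or control male 2) and 12 (without mtOGG1 male 2). In males 6 calls (1 higher, 5 lower) became 0 without a filter or moderation, 10 (4 higher, 6 lower) with median centring, 11 with panel reference scaling (4 higher, 7 lower), 11 with robust variances and 4 (without control male 1 or mtOGG1 male 3) to 19 (without mtOGG1 female 3) with 1 mouse left out. The 4 calls between sexes were 2 without a filter, with genes above the floor in all mice, with panel reference scaling or without moderation, and 2 to 5 with 1 mouse left out. The female count was 1 with Ttr as a covariate and 0 to 2 with 1 mouse left out, and the interaction count 0 to 1. Cdkn1a over both sexes kept -0.90 but missed the threshold without a filter (adjusted p = 0.163), where genes at the floor are added, and without moderation (adjusted p = 0.195), and had -0.71 with Slc17a6 as a covariate (adjusted p = 0.0549); with 1 mouse left out it lay between -0.989 and -0.764. The cause was not tested. In males it was -0.95 at a pseudocount of 20, -1.11 with genes above the floor in all mice or robust variances and -1.07 after median centring, each passing, and -1.29 to -0.87 with 1 mouse left out. With the replicate block the Cdkn1a values were unchanged (limma, adjusted p = 0.0315 over both sexes and 0.0643 in males) and no member's call changed; 4 of 12 mice correlated best with their own number.

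By exact permutation 2 members had p under 0.05, against 1 after median centring or panel reference scaling, where Sesn1 was -0.07 (-0.0729) and -0.08 (-0.0765), and 1 to 4 with 1 mouse left out. These p-values are unadjusted and were found for the members alone. The share of all genes that would pass is not known, so the counts say nothing about the members as a set. Gadd45a ranged from -0.33 to -0.20, Sesn1 from -0.145 to -0.0901 and Sesn2 from 0.10 to 0.27 with 1 mouse left out, and Cdkn1a over Gadd45a from -0.77 to -0.47. Values near 0 changed sign: the sex interaction of Sesn1 to 0.00391 (median centring), that of Sesn2 to -0.00876 (panel reference scaling) and -0.0634 (Ttr covariate), Ulk1 to 0.0303 (median centring), 0.0267 (panel reference scaling) and 0.0189 (Slc17a6 covariate), and Casp9 to -0.00831 (Ttr covariate). With Slc17a6 as a covariate so did Atr (-0.00697), E2f1 (0.0486), Sqstm1 (-6.34e-04), Mapk14 (0.0152), Plcg2 (-0.11) and Ttr (-0.71). With 1 mouse left out the genotype value ranged from -4.87e-04 to 0.102 for Atr, -0.133 to 0.0231 for Nfe2l2, -0.0128 to 0.0519 for Sqstm1, -0.0567 to 0.0115 for Ulk1, -0.0985 to 0.167 for Irf8, -0.0899 to 0.0714 for Casp9, -0.0256 to 0.0741 for Bag4, -0.00936 to 0.171 for Plcg2 and -0.0303 to 0.125 for Trp53. The interaction ranged from 0.193 to 0.697 for Cdkn1a, -0.0823 to 0.191 for Gadd45a, -0.0785 to 0.0373 for Sesn1 and -0.164 to 0.174 for Sesn2. Correlations that changed sign were Sesn2 with Slc17a6 (0.00447 at a pseudocount of 20, 0.0805 with panel reference scaling), Sesn1 with Sesn2 (0.35 after median centring, 0.0166 with panel reference scaling) and Sesn1 with Slc17a6 (0.0737 with panel reference scaling). With 1 mouse left out r ranged from -0.338 to 0.187 for Cdkn1a with Gadd45a, -0.539 to 0.222 for Cdkn1a with Sesn1, -0.595 to 0.0158 for Sesn1 with Sesn2, -0.330 to 0.0616 for Sesn1 with Slc17a6 and -0.620 to 0.427 for Sesn2 with Slc17a6. Low counts limit Sesn2 most.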

Other observations

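Hspb1, whose small heat shock protein protects cells under stress, did not pass over both sexes, but it passed at a log2 fold change of -0.97 with Slc17a6 as a covariate (limma, adjusted p = 0.00169), and also with Ttr as a covariate (-0.82, adjusted p = 0.0123) and without control female 2 (-0.85, adjusted p = 0.0191). Its value ranged from -0.85 to -0.60 with 1 mouse left out, and over 11 alternatives its adjusted p ran from 0.00169 to 0.299.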
